A study of Homo sapiens with 12 samples.

Results

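The 51 genes described here encode the machinery of mitosis: the cyclins and kinases that start it, the checkpoint, kinetochore and spindle proteins that move the chromosomes, and the proteins that cut the cell apart. They form a list of named G2 and mitotic genes, taken by symbol, and all 51 matched an Ensembl gene in both count tables, which list 61860 and 62700 genes. The study sequenced 12 RNA libraries of RT4, an established line of human bladder cancer cells, in 2 experiments. In the overexpression experiment, 3 libraries came from cells transfected with an empty Flag vector and 3 from cells transfected with a Flag_ITGB4 plasmid (ITGB4 is an integrin beta subunit), and all cells grew in McCoy's medium. The resistance experiment compared 3 libraries of parental RT4 cells, labelled as treated with PBS, with 3 of a cisplatin-resistant RT4 line, labelled as treated with cisplatin, all grown in MEM and labelled as wild type. The labels give no cisplatin dose or time and say nothing of clones, so resistance and cisplatin treatment cannot be told apart. Total counts ranged from 22701466 to 33352045 per library in the overexpression experiment and from 31824582 to 38199946 in the resistance experiment.

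Cells enter mitosis when cyclin B and CDK1 form an active kinase. Aurora and Polo-like kinases then build the spindle, kinetochores tie chromosomes to microtubules, and the spindle checkpoint holds the anaphase-promoting complex back until every chromosome is attached. CDC20 then switches that complex on, securin and cyclin B are destroyed, sister chromatids part, and the central spindle guides cytokinesis. Most of these genes are transcribed late in the cell cycle, under the MuvB core complex with B-MYB and FOXM1, and are repressed in resting cells by the DREAM complex. A promoter element called CHR, often beside CCAAT boxes, takes part in this timing. MKI67, TOP2A and several others are therefore read in tumour pathology as marks of proliferation.

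The labels were first checked against the data. ITGB4 itself stood at 858 to 879 CPM (counts scaled to library size, with TMM factors) in the vector libraries and at 1379 to 1485 in the plasmid libraries, 1.64-fold higher. In the resistance experiment it stood at 598 to 602 in the parental and at 831 to 848 in the resistant libraries. The group field of the second and the third replicate of both overexpression groups names other integrins (ITGB5 and ITGB6), while all titles name ITGB4. The parental columns are headed NC with a number, and their place in the table of the resistant columns is the ground for calling them parental, which is an inference. They are called a, b and c. They differ from the vector libraries, with r of 0.755 to 0.757 in log2 CPM over 9481 genes, against 0.998 or more within the parental group. The experiments also differ in medium and in their separately made counts, and the part of these in r was not tested. The 14 urothelial and epithelial markers summed to 5318 to 5506 CPM in vector, 6933 to 7398 in plasmid, 7588 to 7673 in parental and 8037 to 9257 in resistant libraries, so both experiments hold epithelial RNA. UPK1A, a uroplakin, reached at most 0.54 CPM in any library. The 6 fibroblast markers summed to 48.1 to 52.3 CPM in vector, 24.4 to 26.0 in plasmid, 11.5 to 12.02 in parental and 4.43 to 5.73 in resistant libraries, nearly all of it COL3A1 and COL1A1. COL3A1 stood at 44.1 to 48.4 CPM with vector and 17.6 to 18.8 with plasmid, and COL1A1 at 11.5 to 11.8 in parental and 4.01 to 5.39 in resistant libraries. The part of these markers in the changes below was not tested. The defining fibroblast markers DCN, LUM and COL1A2 were at or near 0 in every library. The 6 leukocyte markers summed to at most 1.12 CPM and the 4 endothelial ones to at most 2.51.

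In the cisplatin-resistant line all 50 mitotic genes that could be tested were lower than in parental cells and none was higher (edgeR quasi-likelihood test, Benjamini-Hochberg adjusted p under 0.05). Of all 16875 genes tested, 27.7% were lower and 26.8% higher. The median log2 fold change of the 50 was -1.43, a 2.69-fold fall, beside 0.02 over all genes. The changes ranged from -2.27 for KIF20A, a kinesin of the central spindle, to -0.20 for CKAP2, a spindle pole protein. More than 2-fold falls were seen in 46 of the 50, against 5.07% of all genes tested. Over 4-fold falls were seen in 8 of the 50, against 152 of all 16875 genes tested. These 8 were KIF20A, HMMR, CDC20, AURKA, FAM83D, PLK1, BUB1 and CENPE. In each of the 50, all 3 resistant libraries lay below all 3 parental libraries, as they did in 30.5% of all genes tested. Tested against a change of 1.5-fold with edgeR's glmTreat, 47 were lower, against 6.31% of all genes, and the other 3 were BUB3, CKAP2 and PRC1. NUSAP1 had too few counts to be tested. In bulk RNA, fewer cells in G2 and mitosis and less of these transcripts in each cell cannot be told apart. Scaling by library size alone moved the median of all genes to 0.18 and the split of all calls from 26.8% higher and 27.7% lower to 38.8% and 18.4%. With it 49 members remained lower, and CKAP2 stood at -0.03 (adjusted p = 0.599).

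With the ITGB4 plasmid the same genes moved apart from each other. Of the 51 tested, 17 were higher, 24 were lower and 10 were not called by the same edgeR test. Of all 16950 genes tested, 36.5% were higher and 35.7% lower, so the share of members called was near that of all genes in the higher direction and above it in the lower. The median log2 fold change was -0.07, beside 0.00 over all genes. Changes ranged from -1.47 for KIF20A to 0.60 for CKAP2, the same genes that lay at the ends of the range in the resistant line. All 3 plasmid libraries lay above all 3 vector libraries for 17 members and below them for 26, beside 37.4% and 37.1% of all genes. Only KIF20A and HMMR fell more than 2-fold, beside 8.68% of all genes. Against a change of 1.5-fold, glmTreat called 0 members higher and 8 lower (KIF20A, HMMR, CENPA, CENPF, PTTG1, CCNB2, KIF4A and CDC20), beside 11.1% and 11.4% of all genes. The 10 members not called were CCNA2 at -0.07, CDCA3 at 0.07, BUB1B at -0.04, BUB3 at -0.01, MAD2L1 at -0.04, KIF2C at 0.02, NUSAP1 at 0.02, KIF23 at 0.02, RACGAP1 at -0.03 and PRC1 at -0.43 (adjusted p = 0.0577). Of these, KIF2C, KIF23 and NUSAP1 changed sign when library sizes alone were used, and CCNA2 (adjusted p = 0.0214) and PRC1 (adjusted p = 0.0394) were then called lower, which made 26 in all. PRC1 was also called by edgeR with a minimum of 1 CPM in 3 libraries (adjusted p = 0.0467) and without plasmid library 3 (adjusted p = 0.037).

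**Figure D1:**
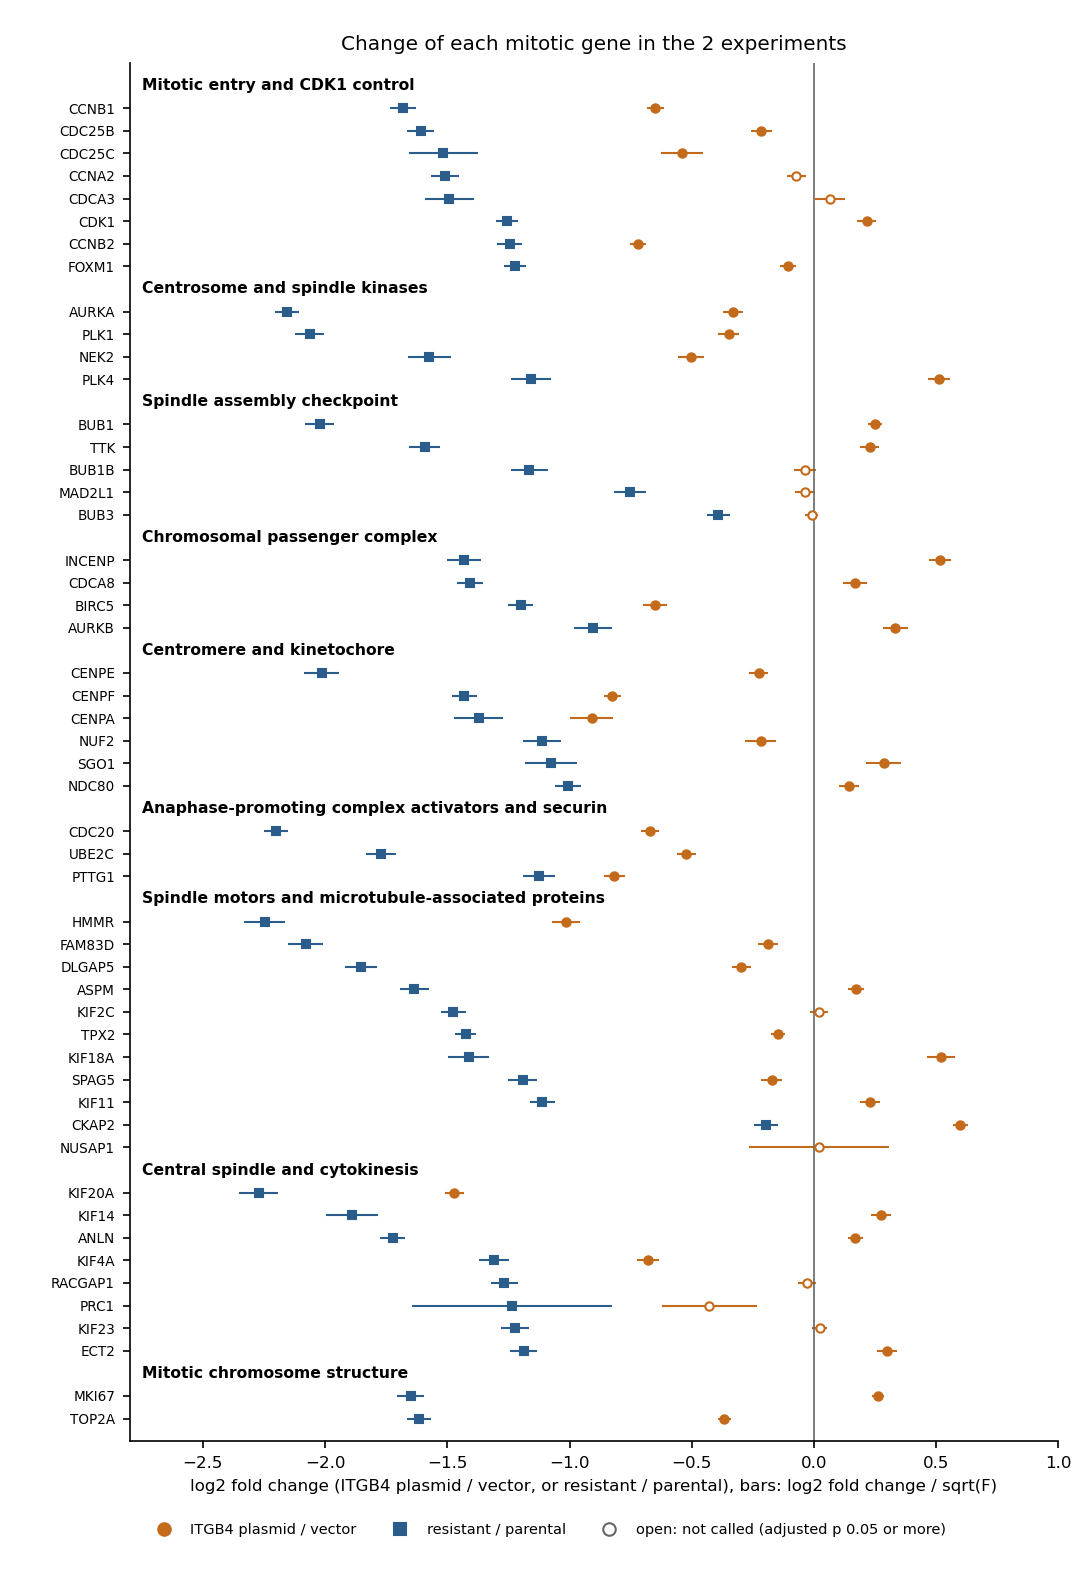
Log2 fold change of each of the 51 mitotic genes, grouped by role, for ITGB4 plasmid against vector (orange circles) and for the resistant against the parental line (blue squares), with n = 3 libraries per group. Bars give the approximate standard error, filled points passed the edgeR test, and the blue squares all lie left of 0 (-2.27 to -0.20), while the orange circles lie on both sides (-1.47 to 0.60).

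In what follows, the values of the libraries are TMM-normalised CPM in the order of the replicates (1, 2, 3, or a, b, c for the parental line), and values per kilobase divide them by the summed exon length. A ± after a log2 fold change is an approximate standard error from 3 against 3 libraries, the absolute change over the root of the F statistic. Levels in the tables of the 2 experiments are not compared by a test, since they were made separately. The counts of each role group stand beside the same shares of all genes tested. With the plasmid 36.5% rose and 35.7% fell, and in the resistant line 26.8% rose and 27.7% fell. The role groups hold few genes, and their counts were not tested against these shares. Positions are those of GENCODE 29 on GRCh38, counted from 1.

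Among the 8 genes of mitotic entry and CDK1 control, 8 fell in the resistant line (median -1.50), and with the ITGB4 plasmid 5 fell, 1 rose and 2 were not called (median -0.16). CCNB1 (ENSG00000134057, chr5:69167010-69178245, plus strand) encodes cyclin B1, the partner that activates CDK1. Its libraries read 140.4, 150.3 and 150.1 with vector, 97.3, 92.6 and 91.9 with plasmid, 232, 242 and 238 in the parental and 74.8, 79.4 and 67.9 in the resistant line. The groups did not overlap in either experiment, and the gene fell in both, at -0.65 ± 0.03 with the plasmid (adjusted p = 2.99e-11) and -1.68 ± 0.05 in the resistant line (adjusted p = 5.07e-14). Per kilobase it was the highest of the 51 members in the parental libraries, at 92.9 ± 1.98 CPM per kilobase (SD, n = 3). With vector it stood at 57.4 ± 2.21, within its spread of TOP2A at 57.2 ± 0.402. CCNB2 (ENSG00000157456, chr15:59105078-59125045, plus strand), the other mitotic cyclin B, read 82.9, 83.7 and 81.8 with vector and 50.9, 48.6 and 51.2 with plasmid, and 96.6, 94.6 and 96.3 in parental and 39.4, 42.3 and 39.6 in resistant libraries. It too fell without overlap, by 0.72 on the log2 scale with the plasmid and 1.24 in the resistant line. CDK1, the kinase itself, did not follow its cyclins in the overexpression experiment: it rose by 0.22 ± 0.04 there and fell in the resistant line at -1.26 ± 0.05. CCNA2 (cyclin A2) and CDCA3, an adaptor for destruction of the CDK1 inhibitor WEE1, were the members not called with the plasmid. CDC25B and CDC25C, members that encode phosphatases that activate CDK1, fell in both experiments. CDC25B was at -0.22 ± 0.04 and -1.61 ± 0.06 and CDC25C at -0.54 ± 0.09 and -1.52 ± 0.14 (plasmid, then resistant). The related gene CDC25A, outside the members, rose with the plasmid and is given below. FOXM1, a transcription factor of late cell cycle genes, changed at -0.11 ± 0.03 with the plasmid and -1.22 ± 0.05 in the resistant line, and the former call was lost without vector library 2 (-0.08, adjusted p = 0.0535).

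All 4 centrosome and spindle kinases fell in the resistant line (median -1.82), while with the plasmid 3 fell and PLK4 rose. AURKA (ENSG00000087586, chr20:56369389-56392337, minus strand), the kinase that matures centrosomes and the spindle, read 53.02, 58.8 and 57.1 with vector and 45.8, 44.5 and 44.4 with plasmid. In the parental line it read 141, 146 and 147 and in the resistant line 33.3, 32.8 and 31.4. The highest resistant library lay far below the lowest parental one, a change of -2.16 ± 0.05 (adjusted p = 1.7e-15), against -0.33 ± 0.04 with the plasmid (adjusted p = 1.72e-06). PLK4 (ENSG00000142731, chr4:127880861-127899195, plus strand), the kinase that starts centriole duplication, read 28.3, 27.2 and 26.1 with vector, 36.9, 39.1 and 39.7 with plasmid, 42.4, 41.7 and 41.7 in parental and 17.7, 17.03 and 21.6 in resistant libraries. No library overlapped between groups, yet the directions were opposite, at 0.51 ± 0.05 with the plasmid and -1.16 ± 0.08 in the resistant line. PLK1, which acts from mitotic entry to cytokinesis, fell by 0.35 and 2.06 on the log2 scale, and NEK2, which separates centrosomes, by 0.50 and 1.57.

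Of the 5 spindle checkpoint genes, 5 fell in the resistant line (median -1.16), and with the plasmid 2 rose, none fell and 3 were not called. Of all genes tested with the plasmid, 36.5% rose and 35.7% fell. BUB1 (ENSG00000169679, chr2:110637698-110678114, minus strand), a checkpoint kinase at kinetochores, read 82.1, 83.1 and 82.9 with vector and 97.4, 97.9 and 99.7 with plasmid. The parental libraries read 155, 151 and 157 and the resistant ones 34.1, 41.1 and 38.6. It rose slightly with the plasmid (0.25 ± 0.03, adjusted p = 7.77e-07) and fell about 4-fold in the resistant line (-2.02 ± 0.06, adjusted p = 2.48e-14), with no overlap in either experiment. TTK, the kinase known as MPS1 that recruits BUB1, had the same pair of directions, at 0.23 ± 0.04 and -1.59 ± 0.06. BUB3 (ENSG00000154473, chr10:123154277-123170467, plus strand) also serves outside mitosis, in splicing, and was the highest of the group per kilobase with vector (16.9 ± 0.132), whereas in the parental libraries BUB1 (25.6 ± 0.455) lay above it (21.2 ± 0.84). It read 140.0, 140.1 and 142 with vector and 138, 141 and 141 with plasmid, where the groups overlapped and the change was -0.01 ± 0.03 (adjusted p = 0.753). In the resistance experiment it read 183, 169 and 176 and 133, 139.7 and 131, a fall of 0.39 on the log2 scale, the smallest of the 50 after CKAP2. MAD2L1, which encodes the MAD2 protein that sequesters CDC20, changed at -0.75 ± 0.07 and BUB1B, its partner in the checkpoint complex, at -1.16 ± 0.08 in the resistant line.

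The chromosomal passenger complex joins the kinase AURKB to INCENP, BIRC5 (survivin) and CDCA8 (borealin). All 4 of its genes fell in the resistant line (median -1.30), but with the plasmid BIRC5 fell while INCENP, AURKB and CDCA8 rose. INCENP (ENSG00000149503, chr11:62123973-62153163, plus strand), its scaffold, read 45.3, 44.4 and 44.4 with vector, 68.4, 58.6 and 64.8 with plasmid, 56.3, 58.1 and 60.98 in parental and 19.7, 21.7 and 23.5 in resistant libraries. It changed at 0.52 ± 0.05 (adjusted p = 3.25e-08) and -1.43 ± 0.07 (adjusted p = 1.91e-11), without overlap of the groups in either experiment. BIRC5 (ENSG00000089685, chr17:78214186-78225636, plus strand) read 60.9, 67.9 and 63.5, 43.5, 38.4 and 40.9, 113, 112 and 113 and 49.3, 51.1 and 46.9 in the same order. It fell in both experiments, at -0.65 ± 0.05 and -1.20 ± 0.05, again without overlap. CDCA8 (ENSG00000134690, chr1:37692418-37709719, plus strand) read 28.4, 30.7 and 29.97 with vector and 35.7, 31.3 and 33.5 with plasmid, so that its lowest plasmid library lay just above its highest vector library, at 0.17 ± 0.05 (adjusted p = 0.00659). Its parental libraries read 84.8, 81.9 and 82.6 and its resistant ones 31.6, 30.6 and 31.8 (-1.41 ± 0.05). AURKB, the kinase, changed at 0.33 ± 0.05 with the plasmid and -0.91 ± 0.08 in the resistant line.

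All 6 centromere and kinetochore genes fell in the resistant line (median -1.24), and with the plasmid 4 fell (CENPA, CENPF, CENPE and NUF2) and 2 rose (SGO1 and NDC80). CENPA (ENSG00000115163, chr2:26764289-26801067, plus strand), the histone H3 variant that marks centromeres, read 11.5, 12.7 and 12.1 with vector and 7.09, 6.69 and 5.71 with plasmid, and 19.6, 19.9 and 23.4 in parental and 8.40, 8.36 and 7.53 in resistant libraries. Its groups did not overlap, and its changes were -0.91 ± 0.09 (adjusted p = 6.06e-08) and -1.37 ± 0.10 (adjusted p = 2.61e-09). CENPE (ENSG00000138778, chr4:103105806-103198409, minus strand), the kinetochore motor that carries chromosomes to the spindle equator, read 41.2, 41.4 and 40.5, 33.8, 35.8 and 35.5, 47.4, 51.9 and 48.4 and 12.3, 12.5 and 11.8 in the same order. It fell without overlap in both experiments, little with the plasmid (-0.23 ± 0.04) and about 4-fold in the resistant line (-2.01 ± 0.07). NDC80 (ENSG00000080986, chr18:2571511-2616635, plus strand), the protein that grips microtubules, read 40.4, 36.6 and 39.3 with vector and 42.6, 43.1 and 42.7 with plasmid (0.14 ± 0.04, adjusted p = 0.00534). In parental libraries it read 86.9, 91.5 and 87.5 and in resistant ones 42.5, 45.7 and 44.2 (-1.01 ± 0.05). Its binding partner NUF2 went the other way with the plasmid, at -0.22 ± 0.06, and fell at -1.11 ± 0.08 in the resistant line. CENPF, a large coat protein of kinetochores, fell at -0.83 ± 0.03 and -1.43 ± 0.05, and SGO1, which protects centromeric cohesion, changed at 0.28 ± 0.07 and -1.08 ± 0.11.

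The 3 genes around the anaphase-promoting complex fell in both experiments (medians -0.67 with the plasmid and -1.77 in the resistant line). Of the genes tested in both, 7.72% fell in both. CDC20 (ENSG00000117399, chr1:43358955-43363203, plus strand), the activator of the complex, read 94.5, 96.4 and 95.1 with vector and 62.95, 56.9 and 60.1 with plasmid. In the parental line it read 124, 128 and 128 and in the resistant line 27.8, 26.9 and 27.96. The groups lay far apart, at -0.67 ± 0.04 (adjusted p = 3.37e-11) and -2.20 ± 0.05 (adjusted p = 1.7e-15). PTTG1 (ENSG00000164611, chr5:160421822-160428744, plus strand), which encodes securin, read 52.3, 56.7 and 54.5 with vector, 31.9, 31.7 and 29.6 with plasmid, 50.1, 49 and 53.4 in parental and 22.9, 24.4 and 22.6 in resistant libraries. It fell without overlap by 0.82 and 1.13 on the log2 scale, so its falls in the experiments were closer to each other than those of any other member tested in both. UBE2C, the ubiquitin-conjugating enzyme of the complex, fell at -0.52 ± 0.04 and -1.77 ± 0.06.

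Spindle motors and microtubule-associated proteins make up 11 members, of which 10 were tested in the resistant line and 10 fell (median -1.45). With the plasmid 5 fell (HMMR, DLGAP5, FAM83D, SPAG5 and TPX2), 4 rose (CKAP2, KIF18A, KIF11 and ASPM) and 2 were not called (KIF2C and NUSAP1). HMMR (ENSG00000072571, chr5:163460203-163491945, plus strand), a hyaluronan receptor that also binds spindle microtubules, read 25.1, 24.6 and 25.3 with vector and 11.6, 12.9 and 12.5 with plasmid. It read 42.2, 43.5 and 44.3 in parental and 9.27, 10.01 and 8.10 in resistant libraries. The fall was 2-fold with the plasmid (-1.01 ± 0.06, adjusted p = 4.84e-11) and over 4-fold in the resistant line (-2.25 ± 0.08, adjusted p = 4.26e-13), with the groups apart in both. TPX2 (ENSG00000088325, chr20:31739271-31801805, plus strand), which activates AURKA on the spindle, read 142, 145 and 142 with vector and 129, 131 and 127 with plasmid, a small fall without overlap (-0.15 ± 0.03). In the resistance experiment it read 223, 225 and 219.6 against 80.7, 82.1 and 85.5 (-1.42 ± 0.04). CKAP2 (ENSG00000136108, chr13:52455429-52476628, plus strand) was the member with the largest rise with the plasmid, 117, 113 and 113 against 166, 176 and 178 (0.60 ± 0.03, adjusted p = 3.01e-11). It also had the smallest fall in the resistant line, 175, 176 and 174 against 143, 152 and 163 (-0.20 ± 0.05, adjusted p = 0.00216). KIF18A and KIF11, kinesins that set chromosome alignment and spindle bipolarity, rose with the plasmid at 0.52 ± 0.06 and 0.23 ± 0.04 and fell in the resistant line at -1.41 ± 0.08 and -1.11 ± 0.05. ASPM, a spindle pole protein, had the same signs, at 0.17 ± 0.03 and -1.64 ± 0.06. KIF2C, a kinesin that takes microtubules apart, fell at -1.48 ± 0.05 in the resistant line. DLGAP5 and FAM83D, which serve spindle assembly and chromosome alignment, fell at -1.85 ± 0.07 and -2.08 ± 0.07 there, and SPAG5 (astrin) at -1.19 ± 0.06.

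All 8 genes of the central spindle and cytokinesis fell in the resistant line (median -1.29). With the plasmid 3 rose (ECT2, KIF14 and ANLN), 2 fell (KIF20A and KIF4A) and 3 were not called (KIF23, RACGAP1 and PRC1). KIF20A (ENSG00000112984, chr5:138178719-138187715, plus strand), the kinesin MKLP2 that brings the passenger complex to the central spindle, had the largest fall of all members in both experiments. It read 62.3, 62.6 and 62.5 with vector and 22.9, 23.02 and 21.7 with plasmid, and 61.6, 61.95 and 57.8 in parental and 11, 12.6 and 13.9 in resistant libraries. The groups lay far apart, at -1.47 ± 0.04 (adjusted p = 3.04e-15) and -2.27 ± 0.08 (adjusted p = 1.97e-13). ECT2 (ENSG00000114346, chr3:172750682-172821474, plus strand), the exchange factor that activates RhoA at the cleavage site, read 90.4, 92.6 and 86.96 with vector and 104, 117 and 111 with plasmid (0.30 ± 0.04). It read 139.8, 138 and 145 in parental and 57.5, 67.2 and 61.3 in resistant libraries (-1.19 ± 0.06), so the groups were apart in opposite directions. KIF23 and RACGAP1, which form the centralspindlin complex, fell alike in the resistant line, at -1.22 ± 0.06 and -1.27 ± 0.05. ANLN (anillin), a scaffold of the contractile ring, changed at 0.17 ± 0.03 with the plasmid and -1.72 ± 0.05 in the resistant line, KIF14 at 0.28 ± 0.04 and -1.89 ± 0.11, and KIF4A at -0.68 ± 0.04 and -1.31 ± 0.06. PRC1, which bundles antiparallel microtubules, was listed at only 0.584, 0.904 and 1.04 in parental and 0.418, 0.263 and 0.388 in resistant libraries. Its fall of 1.24 ± 0.41 on the log2 scale (adjusted p = 0.0164) was no longer called without parental library b (0.055), parental library c (0.0808) or resistant library 2 (0.072).

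The low counts of NUSAP1 and PRC1 stand beside overlapping annotation. In GENCODE 29, 62.2% of the exon bases of NUSAP1, a microtubule-bundling protein, and 58.4% of those of PRC1 also belong to another gene, mostly a longer model on the same strand. The counting of the overexpression table shows no option to keep reads that fall on several genes. NUSAP1 had 91 counts over all 6 libraries there and 41 in the resistance table, and PRC1 had 202 and 127. The part of the overlap in these levels was not tested, so their values are those of the listed gene rows only. Of the other members, 5 share more than 10% of their exon bases with another gene (BUB1B, FOXM1, PLK1, SGO1 and SPAG5), SGO1 the most with 17.7%, and their values are uncertain to that extent.

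TOP2A and MKI67, which serve the structure of mitotic chromosomes, fell in the resistant line (median -1.63) and moved in opposite directions with the plasmid. TOP2A (ENSG00000131747, chr17:40388516-40417950, minus strand), topoisomerase II alpha, which untangles sister DNA, read 371, 366 and 368 with vector and 277, 292 and 287 with plasmid. It read 369.7, 369 and 361 in parental and 111, 120.5 and 128 in resistant libraries, and fell without overlap at -0.37 ± 0.03 and -1.62 ± 0.05. MKI67 (ENSG00000148773, chr10:128096659-128126385, minus strand) encodes Ki-67, the coat of mitotic chromosomes used as a proliferation mark in pathology. It read 319, 305 and 320.2 with vector and 378, 373 and 382 with plasmid, all higher (0.26 ± 0.03, adjusted p = 1.21e-07). In the resistance experiment it read 329.6, 334 and 318 against 94.9, 103 and 115, all lower (-1.65 ± 0.06, adjusted p = 1.39e-13).

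**Figure D2:**
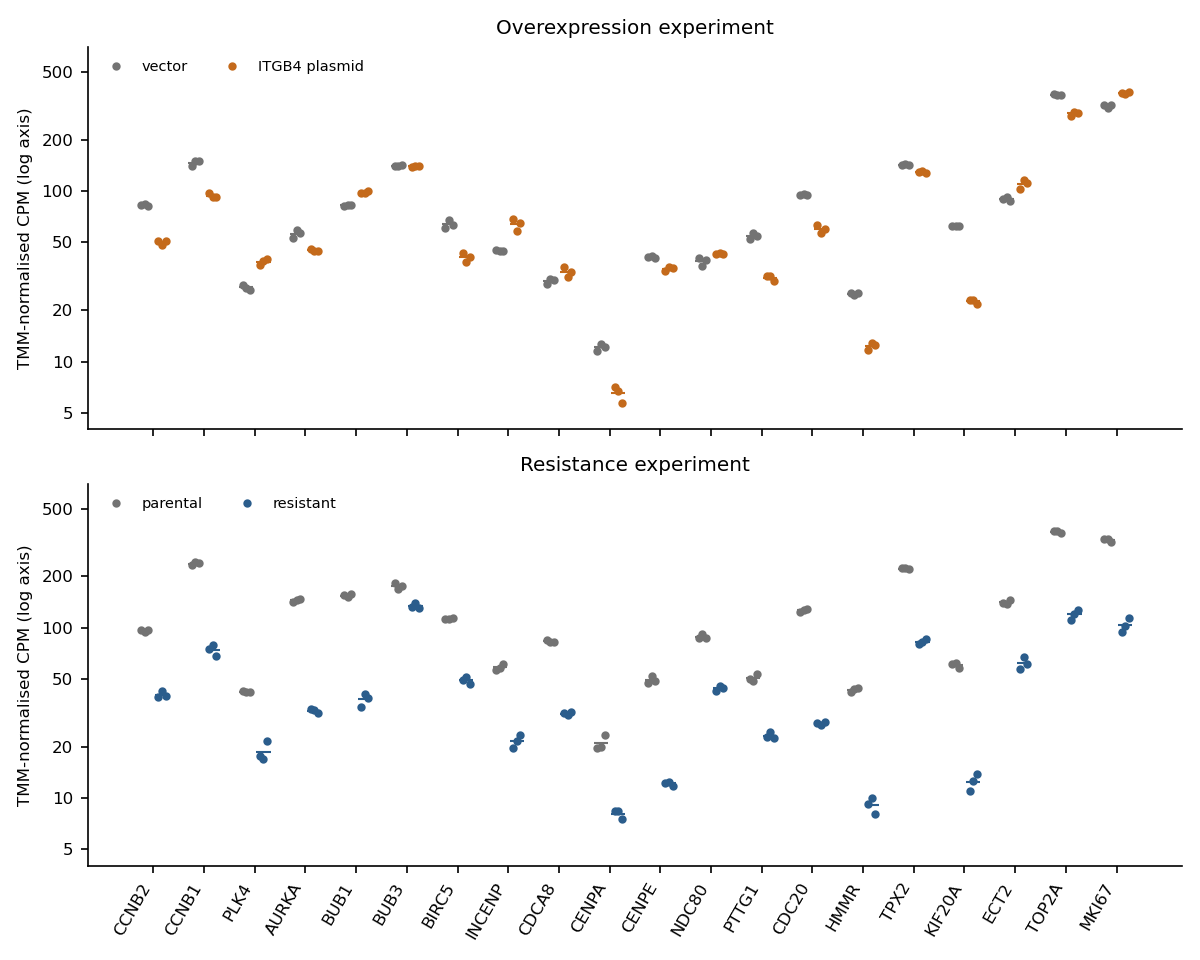
TMM-normalised CPM (log axis) of 20 mitotic genes in each of the 12 libraries, with points for libraries and short lines for the mean of n = 3. In the lower panel the resistant points lie below the parental points for every gene shown, close by for BUB3 (169 to 183 against 131 to 139.7) and far below for KIF20A (57.8 to 62.0 against 11 to 13.9), while in the upper panel the plasmid points lie below, on or above the vector points.

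Replicates were close to each other in all groups. Among members with a mean of at least 5 CPM, the median coefficient of variation was 2.70% in vector, 3.76% in plasmid, 2.66% in parental and 5.82% in resistant libraries, with a highest value of 18.7%, for KIF14 in the resistant line. The labels do not say whether replicates are separate cultures. The p-values then measure only how far these libraries spread, which may be technical.

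The difference between the experiments was tested gene by gene as the plasmid change minus the resistance change, in 1 fit of all 12 libraries. It was positive and called for 49 of the 51 members, while 30.2% of the 18516 genes in that fit were called in the positive and 31.6% in the negative direction. The median difference was 1.23 on the log2 scale, beside -0.05 over all genes. Differences ranged from 0.29 ± 0.08 for PTTG1 (adjusted p = 0.00249) and 0.36 ± 0.05 for BUB3 to 2.14 ± 0.12 for KIF14 and 2.25 ± 0.07 for BUB1 (adjusted p = 1.19e-16). NUSAP1 (0.71 ± 0.61, adjusted p = 0.33) and PRC1 (0.78 ± 0.41, adjusted p = 0.109) were not called. Scaling by library size alone moved the median of all genes to -0.22 and the split of all calls to 23.9% positive and 39.2% negative, and left 47 members called, without CENPA and PTTG1. The experiments share no control libraries.

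Side by side, 24 members fell in both experiments, 17 rose with the plasmid and fell in the resistant line, and 9 fell in the resistant line and were not called with the plasmid. Of the 15655 genes tested in both experiments, 7.72%, 16.6% and 4.94% had these pairs of calls. Since all 50 members tested in both fell in the resistant line, the split among them only repeats their calls with the plasmid. The change was the larger in the resistant line for 49 of the 50 members tested in both, CKAP2 being the exception. How often this held among all genes tested in both was not computed. Over all genes, falls of more than 2-fold were more frequent with the plasmid (8.68%) than in the resistant line (5.07%). The 24 that fell with the plasmid had a median resistance change of -1.59 (-2.27 to -1.11), and the 17 that rose had -1.41 (-2.02 to -0.20). Across the 50 members Pearson's r between the log2 fold changes was 0.40 and Spearman's rho 0.335, given as a description, since genes of the same libraries are not independent replicates. No member was called in opposite directions with at least 1.5-fold change in both.

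**Figure D3:**
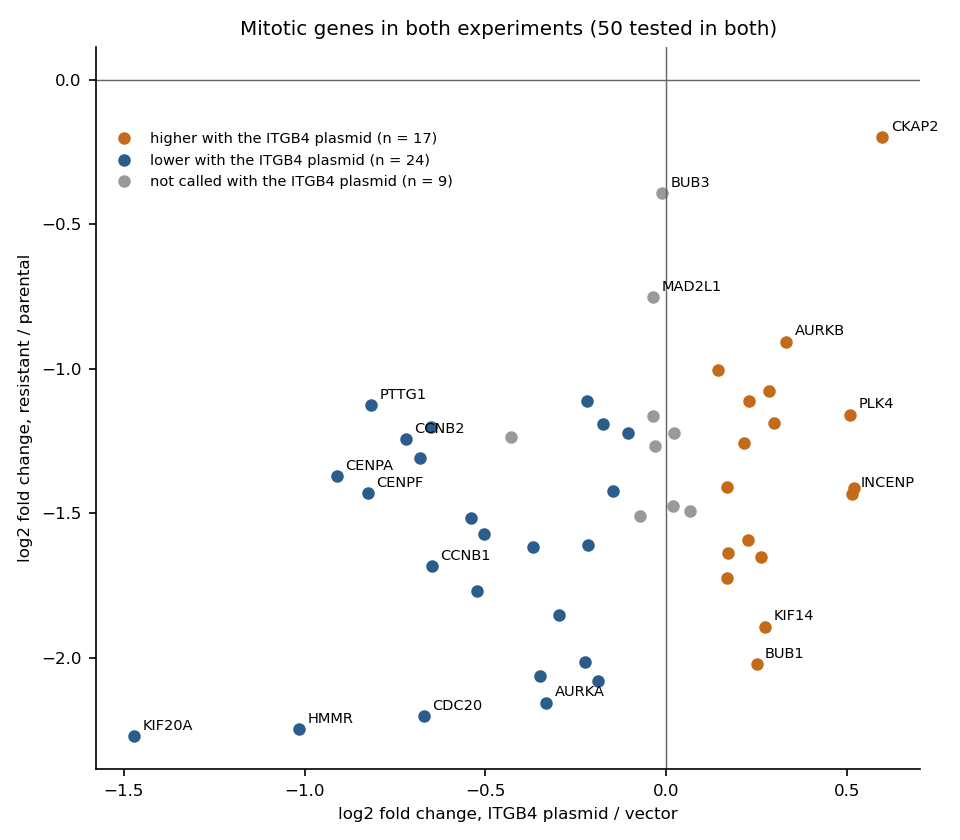
Log2 fold change with the ITGB4 plasmid (x axis) and in the resistant line (y axis) for the 50 members tested in both experiments, coloured by their call with the plasmid. All points lie below 0 on the y axis, and they spread over both sides of 0 on the x axis, with KIF20A at the lower left (-1.47, -2.27) and CKAP2 at the upper right (0.60, -0.20).

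The sum over the 51 genes gives their total level in each library. The most abundant members weigh most in it, and rises and falls of single members offset each other. The sum was 3552, 3566 and 3558 CPM with vector and 3304, 3350.2 and 3344 with plasmid, a small net shift without overlap. It nets 17 members called higher and 24 called lower. In the parental line it was 4758, 4763 and 4770.2, and in the resistant line 1778, 1873 and 1856, far below every parental library. A list of 31 DNA replication genes, which are transcribed earlier in the cell cycle, was read beside it. That list summed to 1346, 1364 and 1347 CPM with vector and to 2260.1, 2215 and 2226 with plasmid. In the resistance experiment it summed to 1273, 1256 and 1270.0 in parental and to 1460.3, 1440.0 and 1428 in resistant libraries. The mitotic sum divided by the replication sum was 2.61 to 2.64 with vector and 1.46 to 1.51 with plasmid, and 3.74 to 3.79 in parental and 1.22 to 1.30 in resistant libraries, so it was lower in every plasmid and every resistant library than in its controls.

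Gene by gene, 28 of the 31 replication genes rose with the plasmid, with a median of 0.65, beside 36.5% of all genes. TYMS (-0.09) and RFC4 (0.08) were not called. In the resistant line 13 rose, 6 fell and 12 were not called, with a median of 0.07, beside 26.8% of all genes higher and 27.7% lower. RRM2, a subunit of ribonucleotide reductase, stood at 133 ± 2.23 CPM with vector, 294 ± 3.89 with plasmid, 138 ± 3.24 in parental and 145 ± 0.475 in resistant libraries (SD, n = 3). It rose with the plasmid at 1.15 and was not called in the resistant line (0.07, adjusted p = 0.202). UHRF1, which maintains DNA methylation at replication, and ORC1, of the origin recognition complex, rose with the plasmid at 1.29 and 1.32. In the resistant line ORC1 fell at -0.57 and UHRF1 stood at -0.18 (adjusted p = 0.0529).

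**Figure D4:**
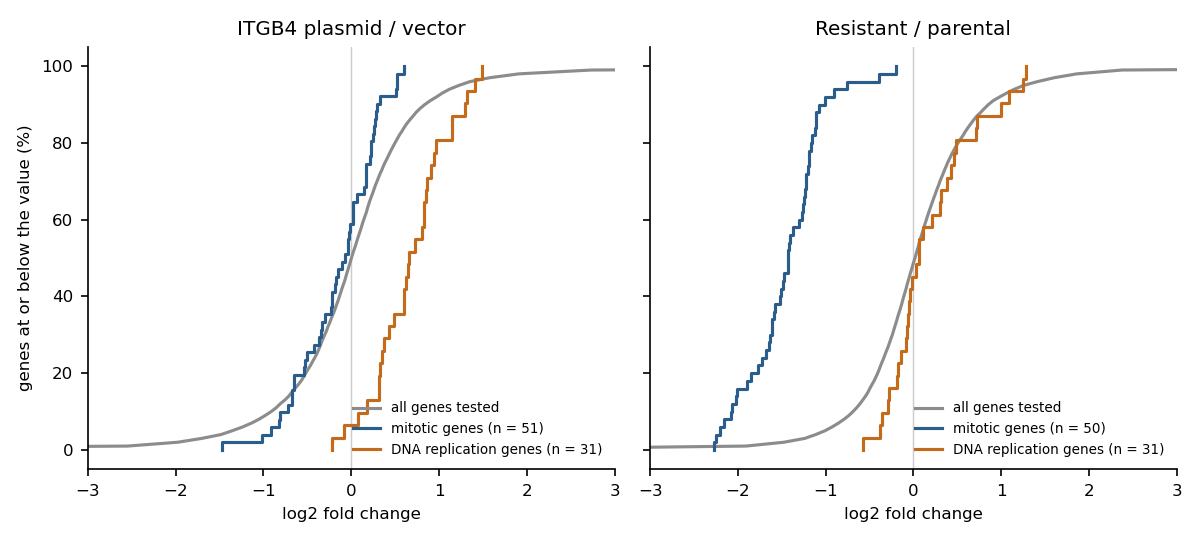
Share of genes (%) at or below each log2 fold change, for the mitotic genes, 31 DNA replication genes and all genes tested, in the overexpression (left) and the resistance experiment (right). On the right the curve of the mitotic genes lies left of 0 over its whole length (median -1.43), whereas on the left the replication genes lie to the right of the mitotic genes (medians 0.65 and -0.07).

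Other genes that work in mitosis come from 9 further lists with 125 genes. Of the 123 tested in the resistant line, 19 rose and 78 fell (median -0.33), beside 26.8% and 27.7% of all genes (median 0.02). Of the 124 tested with the plasmid, 64 rose and 30 fell (median 0.11), beside 36.5% and 35.7% of all genes (median 0.00). The difference between these lists and the 51 was not tested. Among 8 condensin genes, whose proteins fold mitotic chromosomes, 5 fell, NCAPH2 rose and SMC2 and NCAPD3 were not called in the resistant line. With the plasmid 7 rose and NCAPD2 fell. NCAPH stood at 48.5 ± 1.31 CPM with vector, 75.3 ± 0.945 with plasmid, 87.4 ± 1.65 in parental and 35.7 ± 0.948 in resistant libraries (SD, n = 3), that is at 0.63 with the plasmid and -1.29 in the resistant line, SMC4 at 0.26 and -1.09, and NCAPD2 at -0.37 and -1.10. Of the 11 cohesin and separase genes, 10 fell and STAG2 was not called (0.04) in the resistant line, and 6 rose and 4 fell with the plasmid. ESPL1, which encodes the separase that securin holds back, stood at 35.5 ± 0.429 CPM with vector, 70.9 ± 1.51 with plasmid, 84.4 ± 1.81 in parental and 28.6 ± 2.92 in resistant libraries (SD, n = 3). It rose with the plasmid (0.99) and fell in the resistant line (-1.56). SGO2 fell there at -1.97 and STAG1 at -0.68, and with the plasmid STAG1 fell at -0.80 while SGO2 was not called (-0.06, adjusted p = 0.292).

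The subunits of the anaphase-promoting complex showed no common fall. Of 17 genes for its subunits and regulators, 7 rose, 4 fell and 6 were not called in the resistant line (median 0.12). There 26.8% of all genes rose and 27.7% fell. With the plasmid 6 rose and 6 fell (median -0.09), near the 36.5% and 35.7% of all genes. UBE2S, the enzyme that extends its ubiquitin chains, fell in both (-0.56 with the plasmid, -0.73 in the resistant line). ANAPC16, a small subunit, fell with the plasmid (-0.56) and rose in the resistant line (0.48), and FBXO5, an inhibitor of the complex, did the reverse (0.67 and -0.43).

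Further genes of the kinetochore and the spindle mostly fell in the resistant line, where 27.7% of all genes were lower and 26.8% higher. There 10 of 16 inner centromere genes fell and CENPM and CENPU rose, 11 of 13 outer kinetochore genes fell and PMF1 rose, and 16 of 19 centrosome and spindle pole genes fell and TUBGCP2 rose. With the plasmid 8 of 17, 7 of 13 and 9 of 19 rose, while 3, 1 and 6 fell, beside the 36.5% and 35.7% of all genes given above. HJURP, the chaperone of CENPA, was at 0.40 with the plasmid and -1.55 in the resistant line, and CENPN at -0.11 (adjusted p = 0.0572, not called) and -0.75. KNL1, the platform on which BUB1 binds, was not called with the plasmid (0.05) and fell at -1.57, while KNTC1 and ZWINT rose at 0.80 and 0.70 and fell at -0.33 and -0.38. STIL, a partner of PLK4 in centriole duplication, rose at 1.11 and fell at -1.32. HAUS6, of the augmin complex, changed at 0.98 and -0.32, and CKAP2L at 0.08 (not called) and -1.26. Of 12 further cytokinesis genes, 7 fell and 2 rose (SEPTIN9 and CHMP2A) in the resistant line, and 6 rose and 3 fell with the plasmid. KIF20B changed at 0.63 and -1.57, CIT (citron kinase) at -0.40 and -1.25, and SEPTIN9 at -0.77 and 0.35.

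Among the regulators of these genes, MYBL2, which encodes B-MYB, rose in both experiments. It stood at 28.4 ± 0.668 CPM with vector, 54.4 ± 2.88 with plasmid, 9.11 ± 0.994 in parental and 23.3 ± 2.17 in resistant libraries (SD, n = 3). The log2 fold changes were 0.94 with the plasmid (adjusted p = 6.14e-12) and 1.36 in the resistant line (adjusted p = 3.68e-09). LIN52, of the MuvB core, rose at 1.37 with the plasmid and fell at -0.68 in the resistant line, and the repressor E2F8 at 1.72 and -0.64. Of the 16 genes of DREAM, MuvB and E2F, 5 rose (MYBL2, E2F1, E2F5, E2F7 and RBBP4) and 7 fell in the resistant line and 10 rose and 2 fell with the plasmid. Of 11 other regulators of CDK1 and G2, 8 fell and none rose in the resistant line, and 5 rose and 4 fell with the plasmid. Beside these lists, 26.8% of all genes rose and 27.7% fell in the resistant line, and 36.5% rose and 35.7% fell with the plasmid. MASTL, the Greatwall kinase that protects CDK1 substrates from dephosphorylation, stood at 21.4 ± 0.939 CPM with vector, 62.4 ± 2.13 with plasmid, 46.6 ± 1.82 in parental and 25.1 ± 0.892 in resistant libraries (SD, n = 3). It rose with the plasmid (1.54) and fell in the resistant line (-0.89), as did GTSE1 (0.27 and -1.61) and the phosphatase gene CDC25A (1.04 and -0.22).

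The promoters of the members were read from RefSeq (GRCh38.p14, 250 bases before to 50 after the first listed start). Since the list was made of G2 and mitotic genes, a class known for the CHR, the shares below describe the list and not its fall. An entry was found for 42 of the 51 members, and 7 of these had several listed starts, of which only the first was read. Without an entry were FOXM1, AURKA, BUB3, TTK, BIRC5, UBE2C, TPX2, FAM83D and RACGAP1. The letters searched, on both strands, were TTTGAA or TTCGAA for the CHR, CCAAT for the CCAAT box, and TTTGGCGC, TTTCGCGC, TTTCCCGC or TTTGCCGC for an E2F-type site. Other forms of these motifs were not searched. A CHR match was in 31 of 42 windows (73.8%), against 16.6% of all 27305 promoters of the same length and 11.5% of those of 11467 genes tested in the resistance experiment. CCAAT was in 31 of 42 (73.8%), against 35.7% of all promoters and 36.5% of those of genes tested, and both were in 25 (59.5%), against 6.58% and 4.92%. An E2F-type match was in 3 (CDK1, CENPA and NUSAP1), which is 7.14% against 3.33% of all promoters and 5.17% of those of genes tested. The 27 replication genes with an entry had a CHR match in 2, CCAAT in 16 (59.3%) and an E2F-type match in 15. The CHR matches of the 51 lay close to the start: 26 of the 31 members had one that began between -60 and +40.

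Windows of 150 bases, from -130 to +20 around the start, are shown for the 6 members with both motifs that fell most in the resistant line and for 2 without a CHR match, KIF20A and CKAP2, which fell most and least. They read 5′ to 3′ along the gene's strand, and capitals mark matches to the CHR and to CCAAT on either strand, so that a CCAAT on the other strand reads ATTGG.
HMMR: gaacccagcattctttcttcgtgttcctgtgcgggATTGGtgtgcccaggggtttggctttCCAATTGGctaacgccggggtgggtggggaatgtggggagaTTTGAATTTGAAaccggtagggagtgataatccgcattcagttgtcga
CDC20: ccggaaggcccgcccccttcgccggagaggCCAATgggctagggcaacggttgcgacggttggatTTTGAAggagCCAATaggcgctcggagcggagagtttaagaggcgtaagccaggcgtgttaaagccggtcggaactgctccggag
PLK1: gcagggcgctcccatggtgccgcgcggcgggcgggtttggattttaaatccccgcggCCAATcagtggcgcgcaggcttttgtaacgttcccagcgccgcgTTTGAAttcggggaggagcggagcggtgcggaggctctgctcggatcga
BUB1: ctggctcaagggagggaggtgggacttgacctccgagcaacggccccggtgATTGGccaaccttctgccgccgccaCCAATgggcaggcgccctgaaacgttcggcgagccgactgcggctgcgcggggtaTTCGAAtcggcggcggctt
KIF14: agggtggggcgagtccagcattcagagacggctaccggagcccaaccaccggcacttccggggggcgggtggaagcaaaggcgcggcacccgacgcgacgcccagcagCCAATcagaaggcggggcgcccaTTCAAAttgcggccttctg
DLGAP5: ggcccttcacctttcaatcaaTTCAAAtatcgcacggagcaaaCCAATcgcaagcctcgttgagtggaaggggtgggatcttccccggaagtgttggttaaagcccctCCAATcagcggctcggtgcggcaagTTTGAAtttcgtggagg
KIF20A: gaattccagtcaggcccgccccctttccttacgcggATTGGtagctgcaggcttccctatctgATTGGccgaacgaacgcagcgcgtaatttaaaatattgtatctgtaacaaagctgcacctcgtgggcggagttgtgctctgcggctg
CKAP2: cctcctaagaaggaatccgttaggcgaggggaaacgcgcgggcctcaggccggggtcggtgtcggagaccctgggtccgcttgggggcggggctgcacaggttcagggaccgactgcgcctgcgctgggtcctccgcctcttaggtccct

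HMMR holds 2 CHR matches end to end from -28 to -17, and in it a CCAAT and an ATTGG share bases at -69 to -62. PLK1 has its CHR at -29 to -24 with a CCAAT at -73 to -69. CDC20 carries a CHR at -65 to -60 between CCAAT boxes at -100 to -96 and -55 to -51, and another CHR upstream of the stretch shown. In BUB1 and KIF14 the CHR lies just after the start (+2 to +7), and DLGAP5 has CHR matches at -109 to -104 and +4 to +9 and another upstream of the stretch shown. KIF20A has ATTGG at -94 to -90 and -67 to -63 and no match to the CHR letters searched, and CKAP2 has no match to either motif. Neither motif was matched in the windows of CDC25B, CDC25C, CENPE, KIF2C and CKAP2. Motifs at another start or in another form would be missed there. The stretches shown lie at chr5:163460502-163460651 (HMMR, plus strand), chr1:43358851-43359000 (CDC20, plus strand), chr16:23678759-23678908 (PLK1, plus strand), chr2:110678044-110678193 (BUB1, minus strand), chr1:200620732-200620881 (KIF14, minus strand), chr14:55191566-55191715 (DLGAP5, minus strand), chr5:138178982-138179131 (KIF20A, plus strand), chr13:52455858-52456007 (CKAP2, plus strand) on GRCh38.p14.

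The members were also divided by the CHR match. The 31 with a match (NUSAP1 among them, untested in the resistant line) had a median log2 fold change in the resistant line of -1.39 (-2.25 to -0.75) and the 11 without had -1.52 (-2.27 to -0.20). With the plasmid, 14 of the 31 with a match rose and 11 fell, and of the 11 without 2 rose and 7 fell. Of all genes tested with the plasmid, 36.5% rose and 35.7% fell. These are descriptions with no test, and a match to letters is not evidence that a factor binds there. Members counted as without a match may hold a CHR at another start or in another form.

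**Figure D5:**
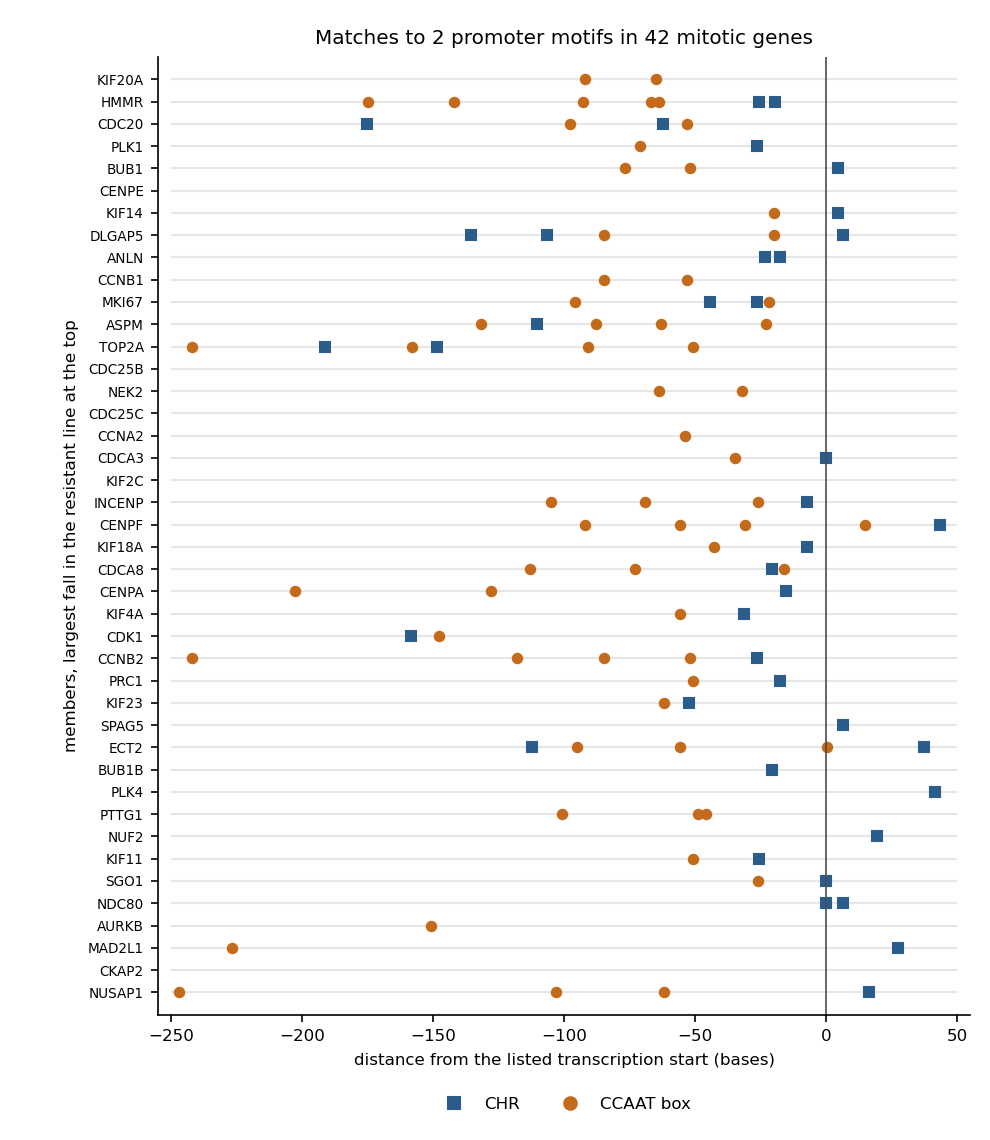
Position of CHR (blue squares) and CCAAT (orange circles) matches, in bases from the listed start, in the promoters of 42 mitotic genes, ordered by their log2 fold change in the resistant line with the largest fall at the top and untested NUSAP1 last. CHR matches gather near the start and CCAAT matches upstream of it, at the top of the order as at the bottom, and 5 genes have neither.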

How the data were processed

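Libraries were made from total RNA with a kit that marks strand, per the labels' protocols. The authors deposited raw counts per gene in 1 table for each experiment. Per the file headers, read pairs of the overexpression libraries were counted over exons with featureCounts 2.0.1, on the Ensembl release 107 annotation of GRCh38, and no strand option is shown, so a gene and its antisense partner cannot be told apart. How the resistance table was aligned and counted is not given in the sources used here. The submitters' processing notes name hg38. The tables differ in content: the overexpression table has no mitochondrial counts (37 genes), and in the resistance table they make up 1.81%.

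Symbols matched 61757 of 61860 and 62700 of 62700 identifiers. Each table was fitted whole with edgeR 4.0.16 in R 4.3.3 (filterByExpr, TMM factors, quasi-likelihood test, Benjamini-Hochberg over all genes tested), and a gene is called at an adjusted p under 0.05. The difference between the experiments was fitted to all 12 libraries with 4 group means. Changes over 1.5-fold were tested with glmTreat. The common biological coefficient of variation was 2.65% in the overexpression and 6.97% in the resistance experiment. No replicates agreed within sampling noise (chi-square per degree of freedom 1.56 to 12.5).

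The members, the related lists and the markers were chosen with earlier results of these data known. Values of each library are printed, in each of the 9 role groups, for the called member with the largest change in either experiment and for the one with the highest level per kilobase over the libraries. CKAP2 and PRC1 were added after their values were seen. Of each related list, up to 3 called genes with the smallest p are named, and single exceptions are named for completeness. Some genes that this rule takes are not reported here. The promoter windows shown are the 6 largest falls with both motifs and 2 members without a CHR match.

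The alternatives were RLE factors, library sizes alone, no low-count filter, a minimum of 1 CPM in 3 libraries, DESeq2 1.42.0, limma-voom (limma 3.58.1), glmTreat, 1 fit to all 12 libraries, a replicate block and leaving out each library. The procedure was tested on simulated counts. Its first criterion was narrowly missed for the difference between the experiments, through genes with few counts. It was then restated for genes with more counts.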

Additional observations from a re-analysis of the deposited data

How the results depend on the processing

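Of 51 mitotic genes, the counts called stayed at 17 higher and 24 lower with the ITGB4 plasmid under RLE factors, DESeq2, limma-voom and the fit of all 12 libraries. A test against a 1.5-fold change left 0 higher and 8 lower, since it asks for a larger change. Leaving out 1 library at a time gave 17 to 17 higher and 23 to 25 lower with the plasmid, 49 to 50 lower and 0 to 0 higher in the resistant line, and 49 to 50 positive and 0 to 0 negative differences between the experiments. The only signs that turned belong to genes with changes near 0 that were not called. With library sizes alone KIF2C stood at -0.0205, KIF23 at -0.017 and NUSAP1 at -0.0183. Over the fits without 1 library, KIF2C ranged from -0.0122 to 0.0508, RACGAP1 from -0.0559 to 0.000432, BUB1B from -0.0699 to 0.0028 and NUSAP1 from -0.17 to 0.19. The cause was not tested. Same-numbered vector and plasmid libraries did not deviate together (correlations -0.043, -0.066 and -0.053). That does not tell whether they were handled together, since a pairing need not leave a shared deviation. A replicate block left 17 higher and 24 lower, and 49 positive differences. No paired analysis was possible because the parental columns carry no number tied to a sample, for the resistance experiment. With 41 and 127 counts in the resistance table, NUSAP1 was not tested there and PRC1 had the largest standard error of the members (0.41).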
